A study of Arabidopsis thaliana with 36 samples.

Results

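The anthocyanin branch is described here through 7 of the 34262 genes in each count table, taken by locus identifier. They are the reductase gene DFR (AT5G42800), the oxygenase gene LDOX (AT4G22880), the glycosyltransferase genes UGT79B1 (AT5G54060) and UGT75C1 (AT4G14090), the glutathione transferase gene GSTF12 (AT5G17220), and the acyltransferase genes 3AT1 (AT1G03940) and 5MAT (AT3G29590). All 7 were among the 20679 genes that passed the filter on low counts. RNA was taken from complete rosettes of Arabidopsis thaliana lines mbf1c, jub1 and Col0, on soil and 28 days old when the treatment began. NonA rosettes were harvested before any cold, at 20 °C by day under 200 µE. ACC rosettes had spent 3 days at 4 °C under 90 µE. Deacc2 and Deacc4 rosettes had then spent 2 or 4 days back in the warm at 200 µE. Every group had 16 h days and 3 libraries, which gives 12 groups and 36 libraries, labelled as biological replicates and numbered in the titles as experiments 1 to 3, whose meaning the labels do not explain. Temperature and light changed together at ACC, and later groups were older, so these cannot be told apart. The labels give the mutants by line name only, without the allele. In whole-rosette RNA, fewer cells using a gene and less RNA per cell cannot be told apart either.

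Anthocyanins are red to purple vacuolar pigments of the flavonoid pathway, and rosettes of this species are known to accumulate them in the cold. DFR reduces dihydroflavonols, the point at which the branch leaves flavonol synthesis, and LDOX oxidises the product to the coloured anthocyanidin. Glycosyltransferases and acyltransferases then decorate the pigment: UGT79B1 adds xylose to its first sugar, UGT75C1 attaches glucose elsewhere on the ring system, 3AT1 adds a coumaroyl group and 5MAT a malonyl group. GSTF12, also known as TT19, is needed for the pigment to reach the vacuole. MYB factors such as PAP1 and PAP2, bHLH factors such as TT8 and the WD40 protein TTG1 are known as activators of these late genes. Pigment itself is not among the data used here.

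The stretches just upstream of the annotated gene starts were read from the RefSeq assembly TAIR10.1 and searched on both strands, since all members were high at ACC together. The search covered the full 250 bases before each gene, exons of other genes included. The sequences printed below stop at such an exon. The first 4 sequences are shown because each holds the run CCACCGGT, in the same orientation, and UGT79B1 is shown because it holds the G-box CACGTG in 2 places. The positions are chr5:17166033-17166282 for DFR, chr4:12006210-12006459 for LDOX, chr4:8123836-8124045 for UGT75C1, chr3:11400333-11400582 for 5MAT and chr5:21938397-21938646 for UGT79B1, all on the minus strand. Each is printed 5′ to 3′ and ends at the base before the gene start, and the capitals mark the run and the G-box.
DFR: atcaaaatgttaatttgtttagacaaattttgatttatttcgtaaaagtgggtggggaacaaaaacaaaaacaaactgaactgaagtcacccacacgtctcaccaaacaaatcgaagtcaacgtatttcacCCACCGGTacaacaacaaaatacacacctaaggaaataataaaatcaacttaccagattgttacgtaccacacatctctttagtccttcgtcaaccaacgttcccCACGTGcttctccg
LDOX: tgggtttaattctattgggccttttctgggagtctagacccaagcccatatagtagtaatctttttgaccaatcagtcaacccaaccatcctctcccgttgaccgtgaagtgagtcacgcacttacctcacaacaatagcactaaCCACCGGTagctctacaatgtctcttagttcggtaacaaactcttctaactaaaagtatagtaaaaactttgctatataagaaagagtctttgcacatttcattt
UGT75C1: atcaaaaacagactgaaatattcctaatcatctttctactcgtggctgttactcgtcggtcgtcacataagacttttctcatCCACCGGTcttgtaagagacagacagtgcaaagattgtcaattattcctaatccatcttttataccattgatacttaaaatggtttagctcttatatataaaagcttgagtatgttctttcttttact
5MAT: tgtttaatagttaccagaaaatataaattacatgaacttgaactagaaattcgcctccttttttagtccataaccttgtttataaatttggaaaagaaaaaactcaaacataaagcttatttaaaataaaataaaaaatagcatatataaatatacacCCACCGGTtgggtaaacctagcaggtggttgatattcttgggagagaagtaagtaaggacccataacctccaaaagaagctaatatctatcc
UGT79B1: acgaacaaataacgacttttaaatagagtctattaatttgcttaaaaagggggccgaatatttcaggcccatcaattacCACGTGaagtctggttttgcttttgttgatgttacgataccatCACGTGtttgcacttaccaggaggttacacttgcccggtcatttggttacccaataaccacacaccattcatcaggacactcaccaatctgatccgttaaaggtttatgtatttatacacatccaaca

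The run CCACCGGT was chosen after these sequences had been read, so its presence in 4 of the 7 members carries no test. Counted from the gene start, with -1 as the base before it, the run began at position -119 in DFR, -105 in LDOX, -128 in UGT75C1 and -92 in 5MAT. Among 27437 protein-coding genes, 64 held it on either strand in their full 250 upstream bases, which is 0.233%. None of the other pathway genes listed here held it. Of the other 60 genes with the run, 52 were tested; 13 of these, or 25%, were higher and 12 lower in Col0 ACC against NonA, where 20.8% of all tested genes were higher. Their median log2 fold change was 0.02. The G-box, a binding sequence of bHLH and bZIP factors, stood in the DFR and UGT79B1 windows, 2 of 7 members, against 6.49% of all protein-coding genes. It was also in 3 of 5 shared flavonoid genes (CHS, CHIL and F3H) and 2 of 10 activators. The other decoration and proanthocyanidin lists had it in 1 of 4 genes each, and the phenylpropanoid entry list in 1 of 8. In the flavonol branch it was in 0 of 5 genes and among the repressors in 0 of 8. The core CCGAC, bound by the CBF cold factors, was found in UGT75C1 alone, 1 of 7, against 12% of genes. The element ACCTACC, a MYB site of phenylpropanoid genes, was in none of the members and in 1.16% of genes. These matches describe letters and not binding; for 3AT1 only 5 bases are free of a neighbouring gene.

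**Figure D1:**
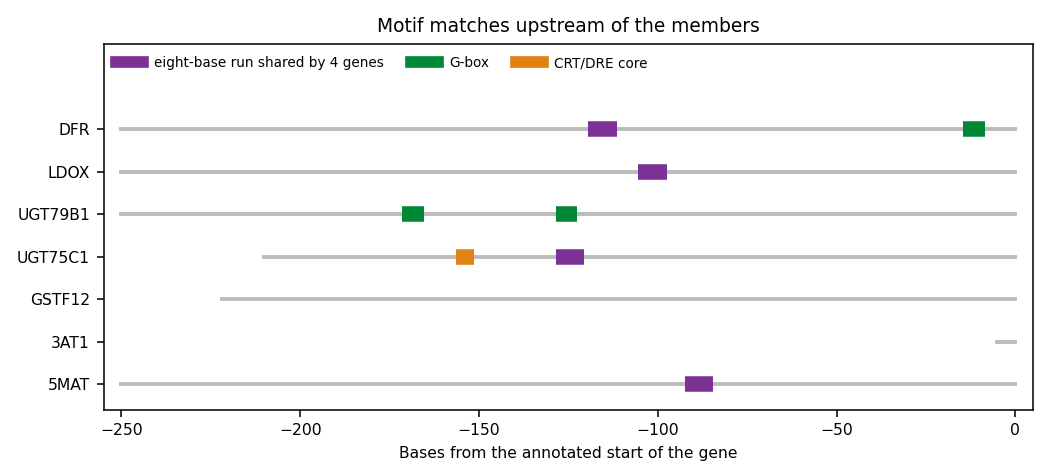
Motif matches in the bases before the annotated start of each member, with the gene start at the right end of the axis and grey lines for the bases free of other genes. The run shared by 4 genes lies between positions -128 and -85 in all of them, and the G-box is in DFR and UGT79B1.

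Gene counts per library ran from 14407060 to 63178347. Levels are given as CPM over the gene rows, where a library's gene counts are scaled to the same total. The genes that the mutant lines are named for were lower but not absent there: over the 4 conditions the log2 fold change against Col0 was -1.73 ± 0.18 (SE) for MBF1C in mbf1c (adjusted p = 1.2e-06, edgeR quasi-likelihood test) and -2.29 ± 0.33 for JUB1 in jub1 (adjusted p = 0.00078). The 5 leaf markers summed to between 21596 and 55279 CPM at ACC and between 46798 and 72580 CPM at NonA, and 4 of 5 were called lower at ACC in mbf1c and 2 of 5 in jub1 and in Col0. Of all tested genes, 24.8% were called lower at ACC in mbf1c, 23.1% in jub1 and 20.7% in Col0. Floral markers stayed at or below 3.57 CPM in every library. Seed markers summed to between 0.34 and 0.79 CPM at ACC and between 0.051 and 0.35 CPM at NonA, with CRU3 and PAP85 at 0 in all ACC libraries. Root markers summed to between 9.19 and 12.8 CPM at ACC and between 57.8 and 136 CPM at NonA, opposite to the members; the part of these markers in the results was not tested.

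All 7 genes were higher at ACC than at NonA in mbf1c, in jub1 and in Col0, by the edgeR quasi-likelihood test with Benjamini-Hochberg adjustment over all tested genes. Among those genes, 22.1% were called higher in mbf1c, 21.9% in jub1 and 20.8% in Col0. The members' median log2 fold change was 3.85 in mbf1c, 3.20 in jub1 and 3.75 in Col0, where the median over all tested genes lay between -0.01 and 0.01. In CPM without TMM scaling, each of the 9 ACC libraries was above each of the other 27 libraries for all 7 genes. Of tested genes, 12.8% showed that separation in CPM. For GSTF12 it depended on the scaling: the lowest ACC library (Col0 replicate 3) had 77.1 CPM and the highest other (jub1 NonA replicate 3) 54.8 CPM. Their TMM factors of 1.07 and 0.725 put these libraries in the reverse order.

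DFR, at the entry of the branch, had 525, 427 and 85 CPM in mbf1c ACC rosettes, against 18.7, 7.64 and 10.1 CPM in mbf1c NonA rosettes. In jub1 it had 236, 511 and 98.6 CPM at ACC, against 5.18, 14.1 and 17.6 CPM at NonA. In Col0 it had 342, 430 and 40.2 CPM at ACC, against 14.8, 9.43 and 15.3 CPM at NonA. The groups were fully apart in each line, with ACC replicate 3 the lowest of its group. The log2 fold change was 4.35 ± 0.80 (SE) in mbf1c, 3.98 ± 0.78 in jub1 and 3.91 ± 0.78 in Col0, with adjusted p-values (edgeR) of 0.00011, 0.000293 and 0.000385. The gene lies at chr5:17164093-17166032 on TAIR10.1, with 6 exons.

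LDOX, which makes the first coloured intermediate, had 481, 308 and 72.0 CPM in mbf1c ACC rosettes, against 13.4, 7.98 and 11.1 CPM in mbf1c NonA rosettes. In jub1 it had 190, 355 and 67.4 CPM at ACC, against 5.02, 14.8 and 13.6 CPM at NonA. In Col0 it had 234, 295 and 28.7 CPM at ACC, against 8.56, 7.35 and 9.89 CPM at NonA. As with DFR, no ACC library came down to the NonA range, and replicate 3 was again the lowest. Its Col0 log2 fold change of 3.98 ± 0.72 (SE) had an adjusted p of 0.000136 (edgeR). A neighbouring gene, AT4G22870, matches LDOX over 364 bases at 96.2% identity, and it held 0 to 5 counts per library; reads that match both copies may be missing from the LDOX count.

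The glycosyltransferase genes followed. UGT79B1 had 141, 111 and 32.9 CPM in mbf1c ACC rosettes, 71.9, 110 and 41.8 CPM in jub1 ACC rosettes and 82.4, 117 and 13.6 CPM in Col0 ACC rosettes, against 1.18 to 7.14 CPM over the 9 NonA libraries. Its log2 fold change was 4.40 ± 0.80 (SE) in mbf1c, 3.76 ± 0.78 in jub1 and 3.92 ± 0.79 in Col0, all called by edgeR (adjusted p-values of 0.000102, 0.000476 and 0.000417). UGT75C1 had 297, 220 and 73.5 CPM in mbf1c, 156, 204 and 109 CPM in jub1 and 154, 208 and 40.5 CPM in Col0 at ACC, against 6.66 to 20.1 CPM at NonA. Both genes were thus clear of their NonA range in every ACC library, and the UGT75C1 log2 fold change was 3.68 ± 0.63 in mbf1c, 2.99 ± 0.61 in jub1 and 3.09 ± 0.62 in Col0. The UGT75C1 value carries a limit: 27.1% of its exonic bases lie opposite another gene, and its strand columns summed to 153% to 313% of its unstranded count. Reads of that overlap are missing from the unstranded count used here. The first strand column held 50.4% to 52.0% of all stranded counts, so for UGT75C1 it may also hold reads of the neighbour. With that column the UGT75C1 log2 fold change was 3.01 ± 0.52 in mbf1c, 2.51 ± 0.51 in jub1 and 2.59 ± 0.51 in Col0.

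GSTF12, the transport gene, had the smallest log2 fold change in each line in this model, though UGT75C1 lay below it in Col0 with the first strand column (2.59, against 2.77 for GSTF12). It had 372, 344 and 190 CPM in mbf1c ACC rosettes, 250, 295 and 185 CPM in jub1 ACC rosettes and 238, 296 and 77.1 CPM in Col0 ACC rosettes, against 17.1 to 54.8 CPM at NonA. The log2 fold change was 2.85 ± 0.78 (SE) in mbf1c, 2.33 ± 0.76 in jub1 and 2.68 ± 0.77 in Col0 (adjusted p-values of 0.00436, 0.0153 and 0.00784, edgeR). Without replicate 1 in all groups the call was lost in each line, with adjusted p-values (edgeR) of 0.0778 in mbf1c, 0.143 in jub1 and 0.114 in Col0. In jub1 it was also lost when NonA replicate 1 or NonA replicate 2 was left out (adjusted p = 0.0584 and 0.0611, edgeR), or replicate 2 in all groups (0.0712), and in Col0 without replicate 2 (0.0509). Its replicate 3 was the highest NonA library in each line and the lowest ACC library in each line, so the contrast within that replicate number was the narrowest.

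The acyltransferase genes differed in level but not in direction. 3AT1, which adds the coumaroyl group, had 77.2, 48.4 and 7.91 CPM in mbf1c ACC rosettes, 22.3, 54.6 and 8.80 CPM in jub1 ACC rosettes and 39.4, 52.0 and 4.69 CPM in Col0 ACC rosettes, against 1.24 to 3.64 CPM at NonA. The lowest ACC library, at 4.69 CPM, stood just above the highest of the other 27 libraries, at 3.64 CPM. Its log2 fold change was 3.85 ± 0.68 (SE) in mbf1c, 3.20 ± 0.66 in jub1 and 3.75 ± 0.68 in Col0. 3AT1 matches AT1G03495, the 3AT2 gene, over 1244 bases at 96.6% identity, and 3AT2 held 12 to 1651 counts per library, so reads of this pair may have been split or left out as multimapping. The 3AT1 strand columns summed to 101% to 246% of its unstranded count, and 5.63% of its exonic bases lie opposite another gene. With the first strand column, which may likewise hold reads of the opposite gene, the 3AT1 log2 fold change was 3.12 ± 0.65 in mbf1c, 2.45 ± 0.63 in jub1 and 3.45 ± 0.68 in Col0. 5MAT, which adds the malonyl group, had 225, 128 and 61.2 CPM in mbf1c, 111, 130 and 70.0 CPM in jub1 and 119, 127 and 31.6 CPM in Col0 at ACC, against 3.68 to 12.1 CPM at NonA. Its log2 fold change was 3.78 ± 0.63 in mbf1c, 3.20 ± 0.61 in jub1 and 3.45 ± 0.62 in Col0.

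**Figure D2:**
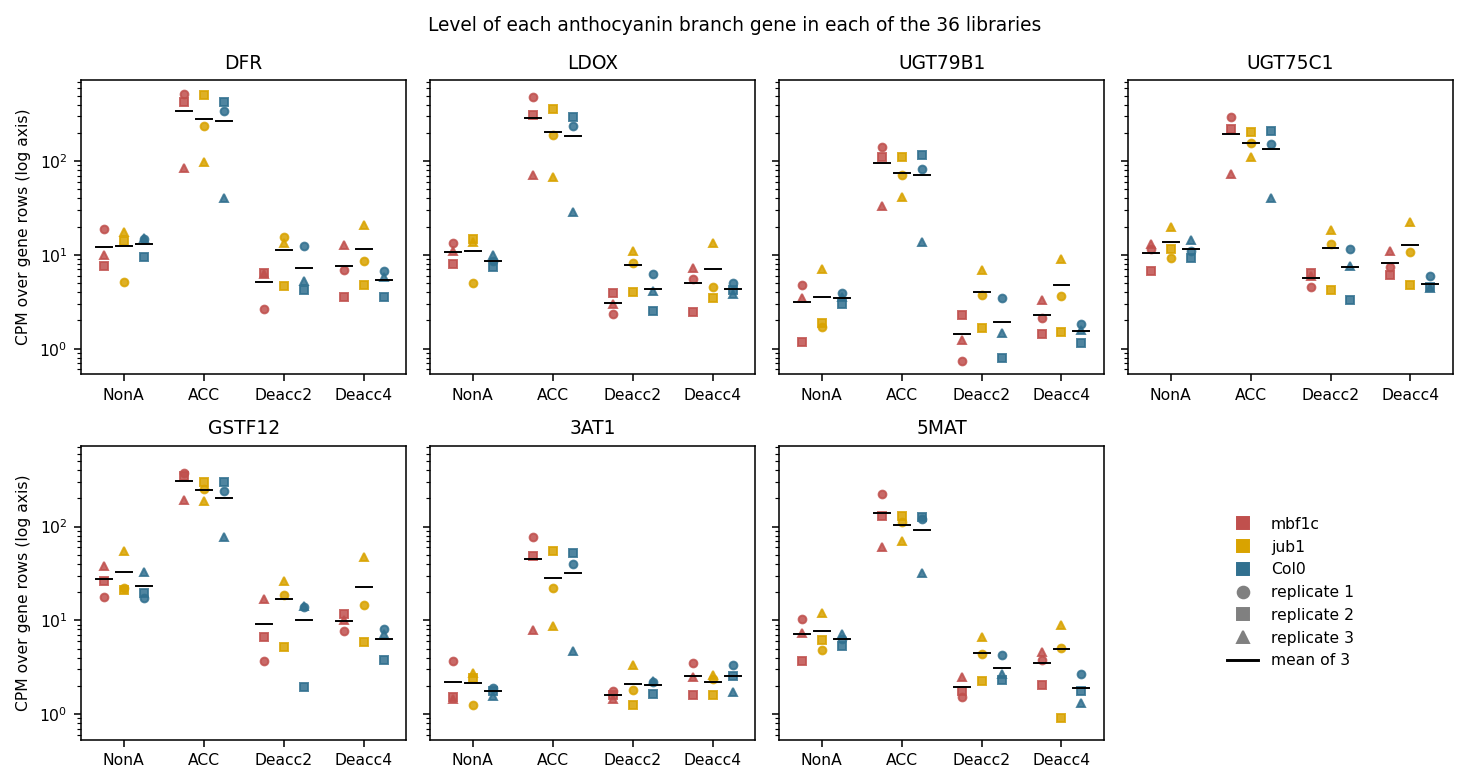
CPM over gene rows (log axis) of each member in each of the 36 libraries, by condition, with lines in colour, replicate numbers as symbols and black bars for the mean of 3 libraries. In this unit, without TMM scaling, the ACC libraries stand above all others for every member. The triangles (replicate 3) are the lowest ACC points of each line.

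The ACC libraries of a line were far from alike. Summed over the 7 genes, they held 2118, 1588 and 523 CPM in mbf1c, 1037, 1660 and 581 CPM in jub1 and 1209, 1525 and 236 CPM in Col0, against 49.0 to 128 CPM at NonA. At the upper end the members took 0.212% of all gene counts. Replicate 3 was the lowest ACC library of each line for every member. The mean of replicates 1 and 2 over replicate 3 at ACC ranged from 1.88 (GSTF12) to 7.94 (3AT1) in mbf1c, from 1.47 (GSTF12) to 4.37 (3AT1) in jub1 and from 3.46 (GSTF12) to 9.76 (3AT1) in Col0. Over all tested genes that ratio had a median of 1.15 in mbf1c, 1.2 in jub1 and 1.22 in Col0, and 10.7%, 10.4% and 9.19% of them reached 2. GSTF12 had the lowest ratio and 3AT1 the highest in each line.

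Other genes moved with this split. The shared flavonoid genes had a median ratio of 2.6 in mbf1c, 1.99 in jub1 and 3.32 in Col0, and the activators 1.71, 1.71 and 2.71. The 5 leaf markers went the other way, with median ratios of 0.57 in mbf1c, 0.58 in jub1 and 0.39 in Col0; their part in the result was not tested. Within each replicate number, all 7 genes were still higher at ACC than at NonA in all 3 lines, by 3.52 to 5.51 log2 CPM for replicate 1, 3.71 to 6.56 for replicate 2 and 1.23 to 3.24 for replicate 3. Without ACC replicate 3 in the 3 lines, a choice made after seeing the data, the log2 fold change in Col0 lay between 3.05 ± 0.83 (SE) for GSTF12 and 4.49 ± 0.56 for LDOX, and all 7 genes were called in every line. The share of all tested genes called in that fit is not given here.

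**Figure D3:**
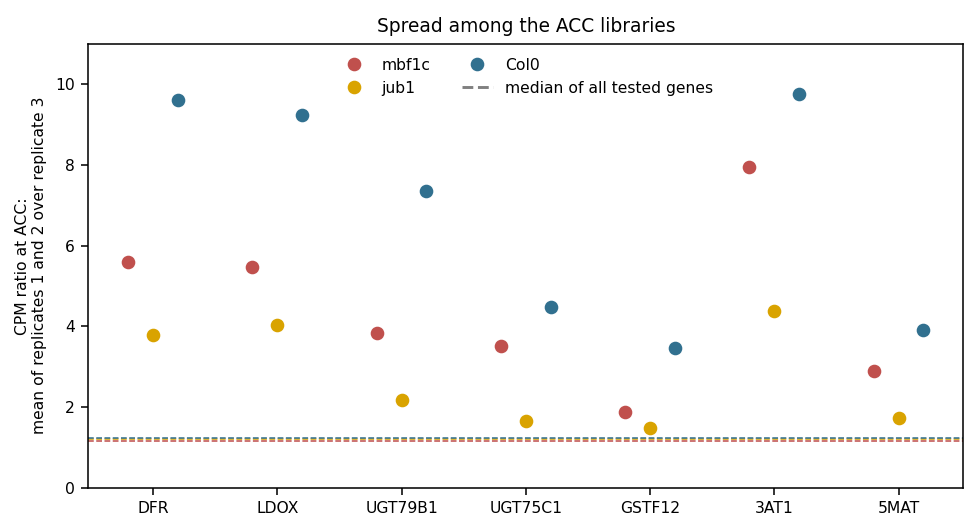
Ratio of the mean CPM of replicates 1 and 2 to the CPM of replicate 3 at ACC, for each member and line, with dashed lines for the median of all tested genes in each line. Every point is above the dashed lines, from 1.47 for GSTF12 in jub1 to 9.76 for 3AT1 in Col0.

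Scaled by exonic length, the members kept a largely fixed order at ACC. The unstranded counts of LDOX, UGT75C1 and 3AT1 may lack shared reads, as described above, which would place these genes lower here. In CPM per kb, 3AT1 was the lowest of the 7 in all 9 ACC libraries, UGT79B1 was next and 5MAT next again. DFR and GSTF12 each held a rank between 1 and 3. The median level over the 9 ACC libraries was 225 CPM per kb for DFR, 167 for LDOX, 49.9 for UGT79B1, 94.9 for UGT75C1, 228 for GSTF12, 20.6 for 3AT1 and 68.6 for 5MAT. At NonA the same medians were 9.30, 7.06, 2.12, 6.97, 19.9, 0.92 and 3.67 CPM per kb. GSTF12 therefore made up a median of 28.2% of the summed length-scaled level at ACC and 47.7% at NonA, and DFR 23.6% at ACC and 15.3% at NonA. The ranges over libraries overlapped for both genes, 23.2% to 45.1% against 28.9% to 56.6% for GSTF12 and 14.5% to 29.1% against 9.23% to 22.1% for DFR. At ACC the level difference between DFR and GSTF12 was within the spread over libraries. At NonA the 2 genes were apart: the lowest GSTF12 library had 15.6 CPM per kb and the highest DFR library 12.3.

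**Figure D4:**
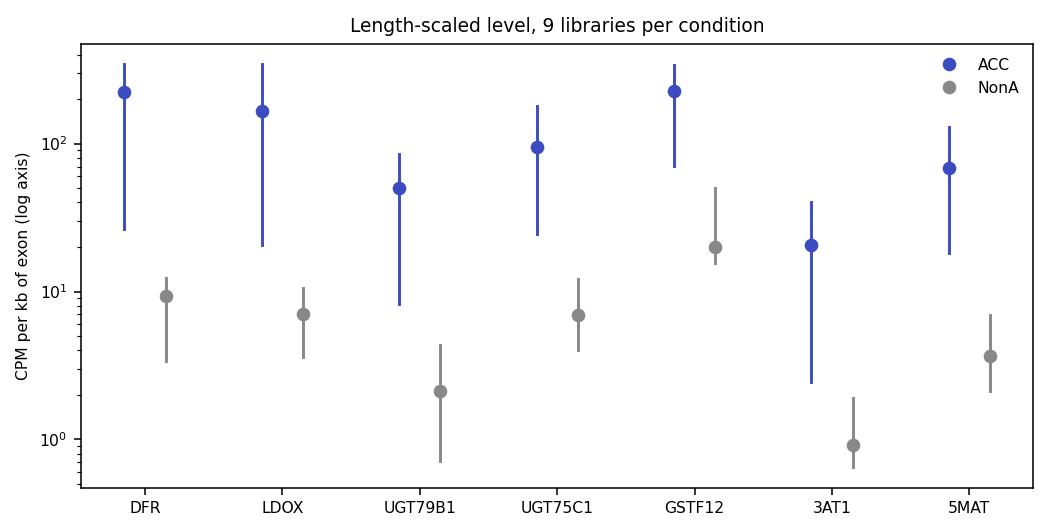
Length-scaled level of each member in CPM per kb of exon (log axis); points are medians and lines run from the lowest to the highest of 9 libraries at ACC and at NonA. 3AT1 is the lowest member at ACC with a median of 20.6, and GSTF12 the highest at NonA with 19.9.

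After 2 days back in the warm, all 7 genes were lower than at ACC in each line, and so they were after 4 days. At Deacc2 against ACC, 19.6% of tested genes were called lower in mbf1c, 19.3% in jub1 and 19.6% in Col0; at Deacc4 against ACC these shares were 19.8%, 21.9% and 23.4%. DFR had 2.63, 6.49 and 6.29 CPM in mbf1c Deacc2 rosettes, 15.6, 4.63 and 13.5 CPM in jub1 Deacc2 rosettes and 12.5, 4.22 and 5.22 CPM in Col0 Deacc2 rosettes, where the lowest ACC library of any line held 40.2 CPM. The fall was steepest for LDOX in mbf1c, with a log2 fold change of -6.14 ± 0.80 (SE, adjusted p = 8.85e-07, edgeR), followed in that line by 5MAT at -5.75 ± 0.69 and UGT79B1 at -5.70 ± 0.86. At Deacc4 the changes against ACC in mbf1c ran from -3.73 ± 0.67 (3AT1) to -5.41 ± 0.77 (LDOX), in jub1 from -2.97 ± 0.78 (GSTF12) to -4.38 ± 0.73 (LDOX) and in Col0 from -3.34 ± 0.65 (3AT1) to -5.31 ± 0.84 (DFR). In jub1 the changes at Deacc2 against ACC ran from -3.36 ± 0.66 (3AT1) to -4.35 ± 0.73 (LDOX), and in Col0 from -3.62 ± 0.67 (3AT1) to -5.10 ± 0.76 (LDOX). With the first strand column, 3AT1 gave -3.48 ± 0.66 at Deacc2 in mbf1c, and at Deacc4 -2.55 ± 0.64 in jub1 and -2.45 ± 0.63 in Col0, and UGT75C1 gave -3.89 ± 0.54 at Deacc2 in mbf1c and -3.53 ± 0.53 at Deacc4 in Col0, against -4.73 and -4.44 without it. In jub1 the 3AT1 call was lost without replicate 2 in all groups, at Deacc2 (adjusted p = 0.0555, edgeR) and at Deacc4 (0.0552), and the GSTF12 call at Deacc4 without replicate 1 (0.0710). These contrasts share their ACC libraries with those of ACC against NonA.

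Between Deacc4 and Deacc2 none of the 7 genes was called by edgeR or DESeq2, in a line or over the mean of the lines, and none had an unadjusted p under 0.05. Over the 3 lines the log2 fold change of Deacc4 against Deacc2 ran from 0.00 ± 0.44 (GSTF12) to 0.35 ± 0.36 (3AT1). The lines did not run alike in their estimates: all 7 were above 0 in mbf1c (0.10 to 0.86), 6 of 7 in jub1 (-0.03 to 0.56) and 2 of 7 in Col0 (-0.71 to 0.29), and the difference between lines was not tested. At this sampling the low levels were therefore already in place at Deacc2, and further movement was not detectable. Of all tested genes, 0.0435% were called over the mean of the lines, and 0% in each line.

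The deacclimated rosettes were also set against NonA. Within a line no member was called at Deacc2 or Deacc4 by edgeR, where 0.058% of tested genes were called at Deacc2 and 2.63% at Deacc4 in mbf1c, 6.05% and 0.595% in jub1, and 0.00484% and 6.11% in Col0. At an unadjusted p under 0.05 there were 3 members in mbf1c at Deacc2, 1 at Deacc4, none in jub1 and 3 in Col0 at Deacc4. The share of all tested genes under that unadjusted rule was not counted, so these counts have no background to be read against. DESeq2 called LDOX and 5MAT lower in mbf1c at Deacc2, where it called 2.93% of tested genes lower, and GSTF12 and 5MAT lower in Col0 at Deacc4, where it called 7.5% lower. The count in Col0 at Deacc4 also changed with the libraries fitted. On the Col0 Deacc4 and NonA libraries alone, edgeR called 6 of 7 genes lower, all but 3AT1. In that fit 13.8% of all genes tested were lower. The 6 log2 fold changes ran from -1.12 ± 0.22 (SE, LDOX) to -2.03 ± 0.35 (GSTF12). That fit also sets its own filter and scaling, and the cause of the change was not tested. Averaged over the 3 lines, 3 of 7 genes were lower at Deacc2 and the same 3 at Deacc4: LDOX, GSTF12 and 5MAT. In those averaged comparisons 20.8% of tested genes were lower at Deacc2 and 21% at Deacc4, so a count of 3 of 7 is not far above the background.

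GSTF12 had 3.68, 6.64 and 17 CPM in mbf1c Deacc2 rosettes, against 17.6, 26.2 and 38 CPM in mbf1c NonA rosettes. In jub1 it had 18.6, 5.14 and 26.3 CPM at Deacc2, against 21.8, 21.3 and 54.8 CPM at NonA. In Col0 it had 13.7, 1.95 and 14.3 CPM at Deacc2, against 17.1, 19.3 and 32.9 CPM at NonA. Each of the 9 Deacc2 libraries was below the NonA library of its line and replicate number, and so was each of the 9 Deacc4 libraries. Of these comparisons, same-numbered libraries deviated together (every correlation over 0.1) only in jub1 Deacc4 against NonA. The share of all tested genes with this order was not counted. The log2 fold change averaged over lines was -1.44 ± 0.43 (SE) at Deacc2 (adjusted p = 0.00959, edgeR) and -1.44 ± 0.43 at Deacc4 (adjusted p = 0.00979). 5MAT gave -1.37 ± 0.34 at Deacc2 and -1.23 ± 0.34 at Deacc4 (adjusted p-values of 0.00256 and 0.00537, edgeR). LDOX, lost at Deacc2 without replicate 1 or 2 in all groups (adjusted p-values of 0.0609 and 0.0987), gave -1.24 ± 0.38 at Deacc2 and -1.0 ± 0.38 at Deacc4 (adjusted p-values of 0.0111 and 0.0355, edgeR), and its Deacc4 call was lost on leaving out any 1 of 11 libraries: mbf1c NonA replicates 2 and 3, mbf1c Deacc4 replicates 1 and 2, jub1 NonA replicate 3, jub1 Deacc4 replicates 1 and 2, Col0 NonA replicate 3 or Col0 Deacc4 replicates 1, 2 and 3 (adjusted p-values of 0.0514 to 0.0993). The GSTF12 call was lost without replicate 2 in all groups at Deacc2 (0.0745) and without replicate 1 at Deacc4 (0.0567).

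The other 4 genes were not called in the averaged comparisons, although DFR at Deacc2 was called when only the groups compared were fitted (adjusted p = 0.0390, edgeR) and without ACC replicate 3 in the 3 lines (0.0449). DFR gave -0.87 ± 0.41 (SE) at Deacc2 and -0.76 ± 0.41 at Deacc4, UGT79B1 -0.79 ± 0.43 and -0.53 ± 0.42, and UGT75C1 -0.74 ± 0.33 and -0.68 ± 0.33, with adjusted p-values (edgeR) between 0.076 and 0.324. 3AT1 stood nearest to its NonA level, at -0.20 ± 0.37 and 0.15 ± 0.37. It was above the NonA library of its line and replicate number in 5 of 9 libraries at Deacc2 and in 6 of 9 at Deacc4.

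**Figure D5:**
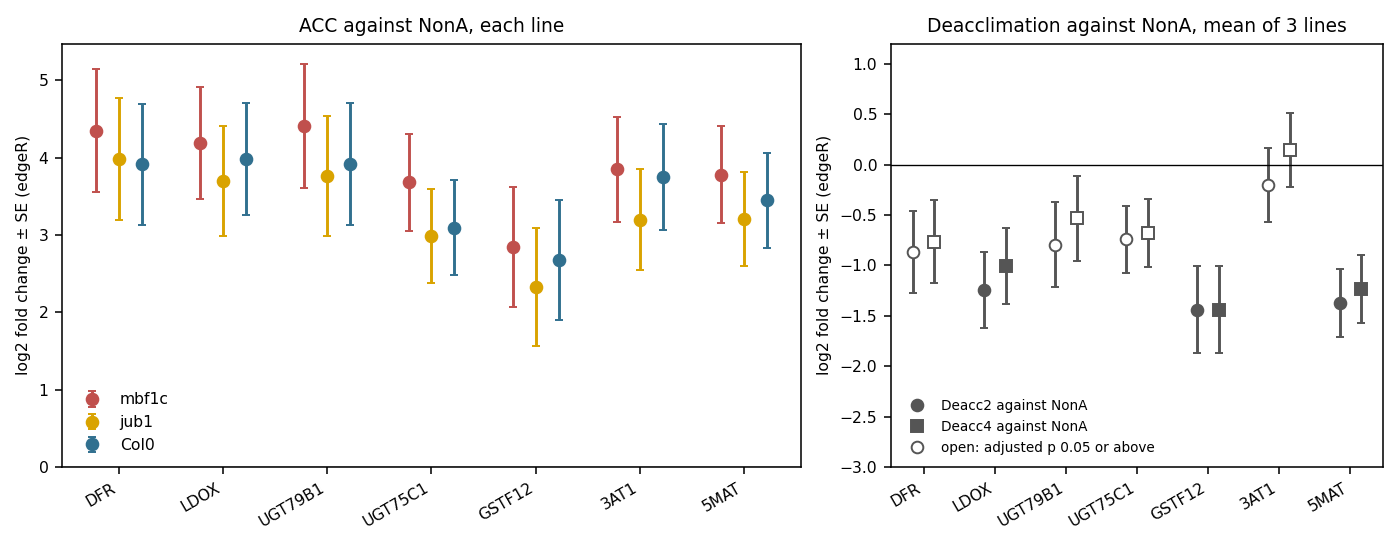
Log2 fold changes with standard errors from the edgeR model, at ACC against NonA in each line (left) and at Deacc2 and Deacc4 against NonA as the mean of 3 lines (right), where open symbols mark adjusted p-values of 0.05 or above. All members are above 2 at the left; at the right GSTF12, 5MAT and LDOX are filled and 3AT1 lies nearest to 0.

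No member was called between a mutant and Col0 at any condition by edgeR or DESeq2, and none was called for a difference in its response to the cold or to its end. Of all tested genes, 0.00967% were called between mbf1c and Col0 at NonA, 0.00484% at ACC, 0.0145% at Deacc2, 0.0193% at Deacc4 and 0.029% over the 4 conditions, and 0% between jub1 and Col0 at single conditions. For the interaction of ACC against NonA, the log2 difference between mbf1c and Col0 ran from 0.10 ± 0.89 (SE, 3AT1) to 0.59 ± 0.81 (UGT75C1), and that between jub1 and Col0 from -0.55 ± 0.88 (3AT1) to 0.07 ± 0.99 (DFR). For Deacc2 against ACC, the difference between mbf1c and Col0 ran from -0.55 ± 1.03 (GSTF12) to -1.17 ± 0.81 (5MAT), below 0 for all 7 genes, and that between jub1 and Col0 from 0.26 ± 0.86 (3AT1) to 1.10 ± 1.00 (UGT79B1), above 0 for all 7. None of the 20679 genes was called in these interaction tests, and no member had an unadjusted p under 0.05. Averaged over the 4 conditions, mbf1c against Col0 gave log2 fold changes between 0.16 ± 0.35 (DFR) and 0.48 ± 0.37 (GSTF12). None of these had an unadjusted p under 0.05.

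jub1 stood higher than Col0 in the estimate for each member when averaged over conditions, without a call. The log2 fold change was 1.01 ± 0.37 (SE) for GSTF12, 0.91 ± 0.36 for UGT79B1, 0.79 ± 0.29 for UGT75C1 and 0.76 ± 0.29 for 5MAT, each with an adjusted p of 0.502 by edgeR and an unadjusted p under 0.05. DFR gave 0.57 ± 0.35, LDOX 0.66 ± 0.32 and 3AT1 0.14 ± 0.31. Without replicate 3 in all groups these averages were 0.52 for GSTF12, 0.12 for UGT79B1, 0.29 for UGT75C1, 0.19 for 5MAT, 0.14 for DFR, 0.22 for LDOX and -0.22 for 3AT1. Of all tested genes 0.0339% were called in that comparison. At Deacc4 GSTF12 had 14.7, 5.88 and 47.0 CPM in jub1 rosettes, against 8.02, 3.8 and 7.21 CPM in Col0 rosettes, and UGT79B1 had 3.69, 1.51 and 8.98 CPM against 1.84, 1.16 and 1.60 CPM. For both genes every jub1 library at Deacc4 was above the Col0 library with the same replicate number, but the groups overlapped, and jub1 replicate 3 was the highest. That order also held for DFR and UGT75C1, but only in 2 of 3 libraries for 5MAT and 1 of 3 for LDOX and 3AT1. The share of all tested genes with this order was not counted. The log2 fold changes there were 2.09 ± 0.76 for GSTF12 and 1.85 ± 0.75 for UGT79B1, with an adjusted p of 0.909 each (edgeR). Without replicate 3 in all groups both were 0.92. The other members ran from -0.03 ± 0.63 (3AT1) to 1.61 ± 0.60 (5MAT) at Deacc4.

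Genes that act with the members were counted in the same tests, from lists written with earlier results of these data known. Of the other anthocyanin decoration genes, 4 of 4 rose at ACC against NonA in mbf1c, in jub1 and in Col0. All tested genes were called higher in 22.1%, 21.9% and 20.8% of cases in these lines. Those shares also stand beside the counts of risen genes in the lists that follow. UGT78D2, which adds the first sugar to anthocyanidins and flavonols, gave a log2 fold change of 2.38 ± 0.36 (SE) in Col0 (adjusted p = 1.8e-05, edgeR), BGLU10, an acyl-glucose-dependent glucosyltransferase, 1.77 ± 0.31 and 3AT2 2.93 ± 0.66. Of the shared flavonoid steps that feed both branches, 5 of 5 rose in each line, with CHIL, an enhancer of chalcone formation, at 3.95 ± 0.49, the isomerase gene CHI at 2.89 ± 0.39 and the chalcone synthase gene CHS at 5.22 ± 0.72 in Col0.

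The competing branches did not all follow. In the flavonol branch 3 genes rose and 1 fell of the 4 tested of 5 in each line: the flavonol synthase gene FLS1 at 3.84 ± 0.44 (SE), UGT78D3 at 5.66 ± 0.71 and UGT78D1 at 1.37 ± 0.24 in Col0, whereas the methyltransferase gene OMT1, named after its value was seen, fell by 1.10 on the log2 scale. In the seed-specific proanthocyanidin branch 1 of 4 genes passed the filter; AHA10, a proton pump, gave 1.15 ± 0.58 in Col0 and was called in jub1 only, with no test of that difference. Of 8 phenylpropanoid entry genes 4 rose in each line, and in Col0 these included 4CL3 at 3.10 ± 0.31, PAL1 at 3.25 ± 0.48 and PAL2 at 2.86 ± 0.44.

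Not all regulators followed, and 24.8% of all tested genes were called lower at ACC against NonA in mbf1c, 23.1% in jub1 and 20.7% in Col0. Of 10 activator genes, 7 rose in mbf1c, 7 rose and 1 fell in jub1, and 6 rose in Col0. In Col0 the bZIP gene HYH gave 3.62 ± 0.46 (SE), the bHLH gene TT8 4.51 ± 0.73 and HY5 1.63 ± 0.38. Of 8 repressor genes, 2 rose and 4 fell in mbf1c, and 2 rose and 3 fell in jub1 and in Col0. MYBL2, a MYB repressor of this branch, gave -1.63 ± 0.30 and LBD37, a nitrogen-linked repressor, -2.47 ± 0.49 in Col0, while COP1, the ubiquitin ligase that removes HY5 and PAP proteins in the dark, gave 1.67 ± 0.42. At Deacc2 against ACC the shared steps fell in 5 of 5 genes in each line and the decoration genes in 4 of 4. The activators fell in 7 of 10 genes in each line. Of all tested genes, 19.6%, 19.3% and 19.6% were called lower there in mbf1c, jub1 and Col0. In each line 1 activator was higher, where 21.3%, 18.9% and 21.8% of all tested genes were called higher.

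The genes most like the members over the 12 group means were found by the root mean square (RMS) difference of centred log2 CPM from the members' mean profile, over 20672 other tested genes. FLS1 was nearest, at 0.21, with 121 to 305 CPM over the 9 ACC libraries and 4.08 to 16.6 CPM over the other 27. CHIL followed at 0.29, then the sugar transporter gene SWEET13 at 0.33, AT5G62210 at 0.33, CHI at 0.33, AT1G24580 at 0.34, 4CL3 at 0.35 and the flavonol regulator gene MYB111 at 0.36. For scale, the members themselves lay between 0.18 (DFR) and 0.58 (3AT1) from their own mean, so all 8 of these genes were nearer to it than 3AT1 was. Among the activators the nearest were HYH at 0.39 and PAP2 at 0.39. With 1 condition far from the rest, this measure is set mainly by the size of the ACC difference.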

How the data were processed

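Gene counts of 36 whole-rosette libraries (3 lines, 4 conditions, 3 replicates each) were read from the tables deposited by the authors, raw counts per gene with an unstranded column and 2 strand columns. The submitters' processing notes name STAR 2.6.0c, TAIR10 and DESeq2, and the labels give Trizol RNA and BGISEQ-500 libraries; for the annotation release, no source used here gives one. The first strand column held 50.4% to 52.0% of stranded counts, so the unstranded column was used. Between 7.04% and 12.8% of reads lay outside the gene rows and were left out. Precision cannot be read from library totals, since no molecular identifiers were used and counts are of reads, not of distinct molecules. The lowest count of a member in a library was 17.

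The 7 members, the gene lists and the tests were chosen with earlier results of these data known. Genes passing filterByExpr were scaled with TMM and fitted with edgeR 4.0.16 (R 4.3.3, quasi-likelihood, 1 term per group, all 36 libraries), with 36 contrasts and Benjamini-Hochberg adjustment within each at 0.05; values beside a ± are standard errors for fold changes. CPM levels use gene-row totals without TMM. The likeness measure used a prior count of 2. Named genes were the members, up to 3 genes per list with the smallest adjusted p in Col0 ACC against NonA, the genes the lines are named for, the LDOX copy and the 8 genes nearest in profile. Alternatives were RLE scaling, library totals, DESeq2 1.42.0, no filter, a replicate block, only the groups compared, a strand column, no organellar genes, a length correction, each replicate or library left out, and LDOX summed with its copy. Replicate numbers are the experiment numbers (Exp) in the titles. Same-numbered libraries deviated together (every correlation over 0.1) in 9 of 26 comparisons of 2 groups, and in those the block changed no count of members called. The model was tested on simulated counts. Sequences came from RefSeq TAIR10.1, whose coordinates are printed; similar genes were found with BLAST 2.17.0. No library was a copy: chi-square over its degrees of freedom, for any pair within a group, was at least 16.9.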

Additional observations from a re-analysis of the deposited data

How the results depend on the processing

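Directions and calls of the members at ACC against NonA, Deacc2 against ACC and Deacc4 against ACC held under all alternatives, except that leaving out replicate 1 or 2, or 1 jub1 NonA library, took single counts to 6 of 7. For Col0 Deacc4 against NonA the count of 0 genes lower became 1 with the replicate block and 1 with the first strand column. It became 1 with the length correction and the replicate block together, 2 with DESeq2 and 6 with only the groups compared. The last fit takes its filter, scaling and spread from those libraries alone, and the cause of these changes was not tested. The pairing rule was not met in that comparison. For mbf1c Deacc2 against NonA the count of 0 became 2 with DESeq2 and 1 without mbf1c NonA replicate 1. Over the mean of lines, the 3 genes lower at Deacc2 against NonA became 1 to 4 on leaving out replicates or single libraries, and the 3 at Deacc4 became 1 to 5, with 5 reached without jub1 Deacc4 replicate 3. The LDOX call at Deacc4 was also lost with library totals, without the filter and with the length correction, alone or with the replicate block (edgeR adjusted p-values of 0.0515 to 0.0838). Among values that were never called, leaving out replicate 3 turned the sign of 3, with ranges over replicates left out of -0.070 to 0.35 for DFR in mbf1c against Col0 averaged over conditions, -0.22 to 0.37 for 3AT1 in jub1 against Col0 averaged over conditions and -0.13 to 1.30 for LDOX in jub1 against Col0 at Deacc4. There 3AT1 ranged from -0.46 to 0.21, with 0.18 without replicate 1, and was 0.016 with the replicate block, against -0.028 without the block. Levels after TMM scaling moved by less than 1 SD in all 84 gene and group pairs. That SD is between the 3 libraries of a group and was wide at ACC. DFR in mbf1c at ACC had 346 CPM with an SD of 231, and 274 CPM after TMM scaling. The check therefore says little about ratios between conditions, and TMM scaling ended the full separation of the ACC libraries for GSTF12. Of 1386 member values over the alternatives, 1360 kept direction and call. That total leaves out, among others, Deacc2 and Deacc4 against NonA within a line, and every fit with a single library left out. At a lowest count of 17 per library, small differences of UGT79B1, 3AT1 and 5MAT outside ACC rest on few reads.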
